A study of Rattus norvegicus with 24 samples.

Results

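Synaptic vesicle, scaffold and general neuron genes were followed as 48 genes chosen by name in 3 classes: 25 presynaptic genes, 13 postsynaptic genes and 10 genes of the neuronal soma and axon. Of these, 46 were found by symbol among the 29539 genes of the count table, and all 46 passed the filter on low counts that left 14421 genes tested (24 presynaptic, 12 postsynaptic, 10 soma and axon). Cplx1 and Nrgn were not analysed here. RNA was sequenced after poly(A) selection from 24 brain samples of the rat, Rattus norvegicus, in 3 groups of 8. The series describes a stab wound made in the forebrain and SKF-81297, an agonist of D1-like dopamine receptors, given into the peritoneum once a day for 3 days with the first dose 1 h after injury. The groups are named normal control, vehicle and SKF. The labels name no strain, sex, age, brain region or time of collection, do not say whether normal control rats had surgery, and describe the vehicle group by that word alone, so vehicle against normal control compares the groups in everything that sets them apart. Whether each sample came from its own animal is not stated, and p-values then measure only the spread between these samples, which may be technical. Total counts ran from 8911339 to 12383368 per library. Every pair of libraries within a group differed by more than sampling noise, with a chi-square of 4.85 to 43.2 per degree of freedom.

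Synaptic vesicles store transmitter at the axon terminal, dock at an active zone built by scaffold proteins, and fuse when calcium binds synaptotagmin and the SNARE proteins zip together. On the facing side, scaffold proteins of the postsynaptic density anchor receptors and the kinase CaMKII, and neuroligins bind presynaptic neurexins across the cleft. Neurofilaments and microtubule proteins carry the axon and dendrites that link both sides to the soma. Transcripts of these genes are common measures of how much neuronal RNA a piece of brain holds. In bulk tissue, fewer neurons, less RNA per neuron and a larger share of RNA from other cells cannot be told apart.

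Vehicle against normal control sets the vehicle arm of the stab wound study against the group named normal control. Most of the genes were lower in vehicle, from the dendritic protein Map2, which fell by 11.7%, to the calcium sensor Syt7, which fell by 41.0% (n = 8 per group). Tau (Mapt) fell by 38.1%, the scaffold Homer1 fell by 39.3% and the neurofilament Nefl fell by 34.2%. All 12 tested postsynaptic genes fell. Presynaptic genes were divided: 13 of 24 fell, 1 rose and 10 did not pass. Of the 10 soma and axon genes 7 fell, and the neuronal nuclear marker Rbfox3 did not pass.

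Over all 46 genes, 32 were lower in vehicle and 1 was higher at an adjusted p under 0.05 in edgeR's quasi-likelihood test. Among all 14421 genes tested, 27.1% were lower and 26.9% higher, so the share of these genes called lower was above the share among all genes and the share called higher was below it. The genes were chosen with earlier results of these data known, so the difference in shares may in part reflect that choice. The median log2 fold change was -0.40 over the 46 genes and -0.01 over all genes tested. By class it was -0.31 for presynaptic, -0.49 for postsynaptic and -0.36 for soma and axon genes. Lists of other genes of these compartments, described further on, had medians of -0.33 (54 presynaptic), -0.32 (30 postsynaptic) and -0.24 (33 soma and axon). The larger postsynaptic fall was not seen there. In 16 of the 46 genes every vehicle library lay under every normal control library (7.49% of all genes tested), 5 of them presynaptic, 6 postsynaptic and 5 of soma and axon. No gene of the 46 lay wholly above the normal control libraries (11.7% of all genes tested). Tested on log2(TPM + 1), where the shift of the median over all genes was 0.11 towards vehicle and 5491 genes were higher against 2410 lower, 26 of the 46 were lower and 2 higher, and Camk2a, Dlg2, Elavl4, Map2, Pclo and Snap25 did not pass. The class medians were then -0.20 for presynaptic, -0.35 for postsynaptic and -0.22 for soma and axon genes.

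**Figure D1:**
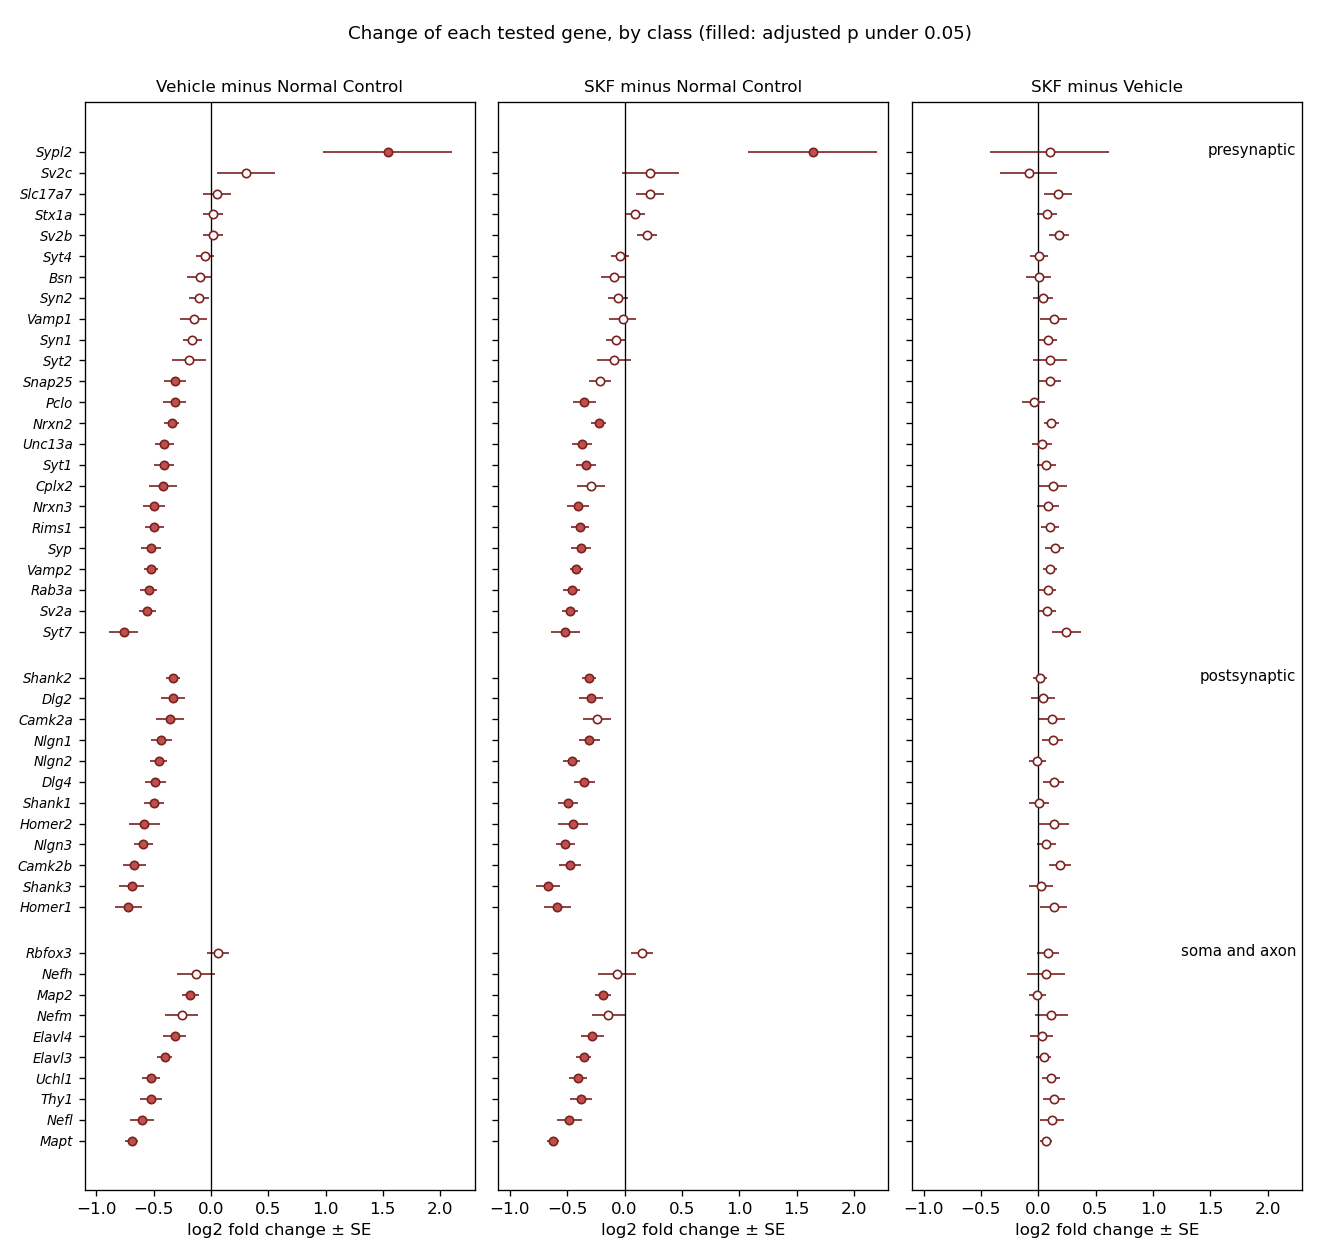
Log2 fold change ± SE of each of the 46 tested genes (rows, by class) in vehicle against normal control, SKF against normal control and SKF against vehicle, n = 8 per group; filled points passed an adjusted p of 0.05. The left and middle panels hold 33 and 30 filled points, the right panel 0, and in the right panel 42 of 46 points lie above 0.

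Other cell types moved with the same contrast. All 7 markers of infiltrating macrophages and all 5 tested markers of neutrophils rose, with summed levels of 478 to 693 CPM (counts scaled to equal library totals, with a correction for library composition) in vehicle against 31.5 to 51.8 in normal control for macrophages and 48.2 to 104 against 3.24 to 5.35 for neutrophils. All 8 oligodendrocyte markers fell, and of 8 astrocyte markers 6 fell and 1 rose. Of 12 thalamus markers 10 fell, with summed levels of 181 to 378 CPM in vehicle and 141 to 1540 in normal control, Shox2 being at 0 in at least 1 normal control library. The value of 141 was that of normal control 6. Without normal control 4 and 6 the range was 460 to 1540 CPM, above every vehicle library. The range without normal control 6 alone was not examined. Of the 8 tested markers of striatal projection neurons 1 fell, and of 8 for GABAergic interneurons 4 fell. Of 9 for cortical projection neurons 3 fell and 2 rose. The 9 include Slc17a7, which is also 1 of the presynaptic genes and did not pass. The part of these markers in the falls described below was not tested.

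Among libraries, normal control 6 stood apart, with the highest summed level of striatal markers in its group (5415 CPM, against 234 to 972 in normal control without libraries 4 and 6), the lowest of thalamus markers (141 CPM) and 8.34 CPM of choroid plexus markers. Normal control 4 held 2384 CPM of skeletal muscle markers against 23.5 to 44.6 in the others. Without both libraries the counts of genes called were 32 lower and 2 higher. Vehicle 2 had the lowest value of its group for 33 of the 46 genes and vehicle 5 the highest for 25. Leaving out any 1 library left between 31 and 33 genes lower.

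Presynaptic genes are described first, in the order calcium sensors, vesicle proteins, SNARE and fusion proteins, active zone and adhesion. Syt7, a synaptotagmin of slow, asynchronous release, had a lowest, median and highest value of 99.4, 144 and 192 CPM in normal control, 67.5, 83.7 and 101 in vehicle and 79.8, 97.3 and 131 in SKF. The ranges of vehicle and normal control overlap at 1 vehicle library, and the change was -0.76 ± 0.13 (log2 fold change ± SE, edgeR adjusted p = 1.63e-05). Syt1, the sensor of fast release, fell by 0.41 ± 0.09, while its relatives Syt2 (-0.19 ± 0.15) and Syt4 (-0.05 ± 0.08) did not pass.

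Sv2a, a vesicle glycoprotein found on nearly all synapses and the target of the drug levetiracetam, spanned 424, 553 and 618 CPM (lowest, median, highest) in normal control, 307, 370 and 421 in vehicle and 346, 394 and 432 in SKF. All 8 vehicle libraries were under all normal control libraries, and Sv2a fell by 0.56 ± 0.07 (edgeR adjusted p = 4.01e-07). Syp, synaptophysin, the usual marker protein of synaptic vesicles, had 848, 1191 and 1356 CPM in normal control, 681, 832 and 918 in vehicle and 731, 904 and 1007 in SKF. Its vehicle and normal control ranges overlap although it fell by 0.52 ± 0.09 (edgeR adjusted p = 8.88e-06).

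Rab3a, the small GTPase that brings vesicles to the release site, had 384, 433 and 475 CPM in normal control, 250.1, 296 and 327 in vehicle and 252, 314 and 377 in SKF. It did not overlap between normal control and either other group, and it fell by 0.54 ± 0.07 in vehicle (edgeR adjusted p = 6.90e-07). The vesicular SNARE Vamp2 fell by 0.52 ± 0.06 (edgeR adjusted p = 2.22e-08), with 510 to 669 CPM in vehicle against 766 to 919 in normal control and no overlap. Snap25, the SNARE on the plasma membrane and the member with the highest level per length in normal control (median 2204 TPM, transcripts scaled by length and library total), had 1809, 2009 and 2352 CPM in normal control, 1072, 1722 and 2072 in vehicle and 1423, 1718 and 2082 in SKF. Its ranges overlap in both comparisons; it fell in vehicle by 0.31 ± 0.10 (edgeR adjusted p = 0.00788).

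Several presynaptic genes did not move past the threshold. Syn1, synapsin 1, which tethers vesicles to actin, had 424, 492 and 521 CPM in normal control, 321, 425 and 568 in vehicle and 388, 459 and 553 in SKF (vehicle -0.16 ± 0.08, edgeR adjusted p = 0.0952). Slc17a7, which loads glutamate into vesicles and is abundant in cortex, had 594, 803 and 1060 CPM in normal control, 618, 871 and 999 in vehicle and 672, 974 and 1211 in SKF (0.05 ± 0.12, edgeR adjusted p = 0.748). The other 8 that did not pass were Syn2, Syt2, Syt4, Stx1a, Vamp1, Sv2b, Sv2c and Bsn, with log2 fold changes from -0.19 (Syt2) to 0.31 (Sv2c). Sv2c, a relative of Sv2a found mainly in the basal ganglia, passed without normal control 6 (0.59, edgeR adjusted p = 0.0165), as did Vamp1 (-0.23, edgeR adjusted p = 0.0339), and Syn1 passed without vehicle 5 (-0.23, edgeR adjusted p = 0.0108).

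Sypl2, synaptophysin-like 2, was the member that rose, and it is known for its role at the triad junctions of skeletal muscle rather than at synapses. It had 0.293, 1.15 and 15.6 CPM (3 to 184 counts per library) in normal control, 3.73, 8.34 and 17.4 in vehicle and 5.35, 7.90 and 16.6 in SKF. The value of 15.6 was that of normal control 4, the library with the muscle transcripts, and the other normal control libraries had at most 1.63 CPM. The log2 fold change was 1.54 ± 0.56 (edgeR adjusted p = 0.0244). Without normal control 4 it was 2.99 (adjusted p = 1.91e-07), and without vehicle 1, which had the highest value of its group, the call was lost (1.32, adjusted p = 0.0591).

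At the active zone, the priming factor Unc13a fell by 0.41 ± 0.09 and the scaffold Rims1 by 0.49 ± 0.08, both without overlap between vehicle and normal control. Pclo, the giant scaffold piccolo, had 176, 221 and 279 CPM in normal control, 126, 180.4 and 229 in vehicle and 145, 167 and 215 in SKF. It overlapped between groups and fell by 0.31 ± 0.10 (edgeR adjusted p = 0.0101). The adhesion molecules Nrxn2 and Nrxn3, neurexins, fell by 0.34 ± 0.07 and 0.49 ± 0.10, and Cplx2, complexin 2, which clamps and then aids fusion, by 0.42 ± 0.12.

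Syn1 and Vamp1 are the members whose promoters hold the full cyclic AMP response element, the palindrome TGACGTCA bound by CREB. The sequences are shown because D1-like receptors raise cyclic AMP. RefSeq promoters of build GRCr8, 250 bases before to 50 bases after the start, were matched by symbol for 33 of the 46 members, and 2 of 33 held TGACGTCA against 1.83% of 33469 promoters. The shorter core TGACG on either strand, which the full site contains, was in 8 of 33 members and 21.2% of all promoters. The stretch before the start of Syn1 is chrX:3725495-3725744 on the plus strand, with the element 190 to 183 bases before the start, and that of Vamp1 is chr4:159698644-159698893 on the plus strand, with the element 71 to 64 bases before it. Capitals mark the element, and a match describes the letters alone.
Syn1: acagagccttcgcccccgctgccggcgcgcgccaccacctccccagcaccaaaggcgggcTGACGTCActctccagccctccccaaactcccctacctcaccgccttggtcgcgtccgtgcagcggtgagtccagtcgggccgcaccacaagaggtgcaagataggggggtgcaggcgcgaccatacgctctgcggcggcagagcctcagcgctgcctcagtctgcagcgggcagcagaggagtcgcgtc
Vamp1: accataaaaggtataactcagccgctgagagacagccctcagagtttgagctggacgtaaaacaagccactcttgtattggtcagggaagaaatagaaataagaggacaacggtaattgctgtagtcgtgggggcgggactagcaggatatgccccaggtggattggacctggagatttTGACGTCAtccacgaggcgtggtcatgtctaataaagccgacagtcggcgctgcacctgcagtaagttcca
In SKF against vehicle the 2 genes had log2 fold changes of 0.08 ± 0.08 (Syn1, edgeR adjusted p = 0.968) and 0.13 ± 0.12 (Vamp1, edgeR adjusted p = 0.968), and neither passed.

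Postsynaptic genes fell without exception among the 12 tested, between -0.72 and -0.33 on the log2 scale. Homer1, an adaptor that ties metabotropic glutamate receptors to the scaffold, had 89.6, 106 and 176 CPM (lowest, median, highest) in normal control, 49.6, 69.1 and 80.7 in vehicle and 64.6, 73.1 and 89.9 in SKF. All vehicle libraries were under all normal control libraries, and it fell by 0.72 ± 0.12 (edgeR adjusted p = 1.15e-05). It fell by 0.60 without normal control 6, which had the value of 176. Shank3, a master scaffold whose loss causes Phelan-McDermid syndrome, had 396, 525 and 684 CPM in normal control, 257, 319 and 402 in vehicle and 288, 318 and 419 in SKF. Of the vehicle libraries 1 overlapped the normal control range, and Shank3 fell by 0.69 ± 0.11 (edgeR adjusted p = 5.13e-06).

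The CaMKII subunits differed in size of change. Camk2b, the subunit that binds actin, had 724, 859 and 1187 CPM in normal control, 428, 560.2 and 679 in vehicle and 556, 622 and 724 in SKF. It did not overlap between vehicle and normal control and fell by 0.67 ± 0.10 (edgeR adjusted p = 1.68e-06). Camk2a, the alpha subunit needed for long-term potentiation, had 992, 1226 and 1427 CPM in normal control, 633, 925 and 1244 in vehicle and 706, 985 and 1372 in SKF. Its groups overlap, and it fell by 0.36 ± 0.12 (edgeR adjusted p = 0.0140).

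Dlg4, the scaffold PSD-95, had 677, 704 and 1205 CPM in normal control, 485, 557 and 599 in vehicle and 517, 612 and 720.1 in SKF. Vehicle and normal control did not overlap, and Dlg4 fell by 0.48 ± 0.09 (edgeR adjusted p = 7.67e-05). It fell by 0.37 without normal control 6, the library at 1205. The neuroligins, which reach across the cleft to neurexins, fell by 0.43 ± 0.09 (Nlgn1), 0.45 ± 0.07 (Nlgn2, found at inhibitory synapses) and 0.59 ± 0.08 (Nlgn3). The remaining scaffolds Shank1, Shank2, Dlg2 and Homer2 fell by 0.50, 0.33, 0.33 and 0.58.

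Among soma and axon genes, Mapt, which encodes tau, the microtubule protein of axons, had the smallest adjusted p of the 46. Its lowest, median and highest values were 661, 731 and 757 CPM in normal control, 401, 459 and 499 in vehicle and 437, 465 and 513 in SKF. Every vehicle and every SKF library was under every normal control library, and Mapt fell by 0.69 ± 0.05 in vehicle (edgeR adjusted p = 1.57e-11). Thy1, a surface glycoprotein of projection neurons, had 629, 752 and 907 CPM in normal control, 388, 533 and 620.0 in vehicle and 470.4, 575 and 673 in SKF. It did not overlap between vehicle and normal control and fell by 0.52 ± 0.10 (edgeR adjusted p = 4.66e-05).

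Nefl, the light neurofilament, had 364, 468 and 569 CPM in normal control, 196, 299.6 and 351 in vehicle and 269.6, 322 and 381 in SKF. Vehicle did not overlap normal control, and it fell by 0.60 ± 0.11 (edgeR adjusted p = 2.51e-05). Its partners in the same filament did not pass: Nefm, the medium chain, had -0.26 ± 0.15 and Nefh, the heavy chain, -0.13 ± 0.17. Nefh spanned 118, 277 and 358 CPM in normal control, 141, 242 and 309 in vehicle and 190, 259 and 303 in SKF, and all 3 ranges overlap.

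Map2, the microtubule protein of dendrites, had 737, 854 and 917 CPM in normal control, 567, 764 and 843 in vehicle and 641, 731 and 868 in SKF. Its ranges overlap, and it fell by 0.18 ± 0.07 (edgeR adjusted p = 0.0406), a call that was lost on the TPM scale (-0.06) and without normal control 1, 2, 4 or 7 or vehicle 2 or 6 (-0.17 to -0.13, edgeR adjusted p = 0.0640 to 0.0943). Rbfox3, the nuclear antigen NeuN that is used to count neurons, had 168, 174 and 218 CPM in normal control, 122, 196 and 238 in vehicle and 176, 203 and 246 in SKF. The groups overlap and the difference of 0.06 ± 0.10 did not pass (edgeR adjusted p = 0.598). The ubiquitin hydrolase Uchl1, abundant in neurons, fell by 0.52 ± 0.08, and the neuronal RNA-binding proteins Elavl3 and Elavl4 by 0.40 ± 0.07 and 0.31 ± 0.10.

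**Figure D2:**
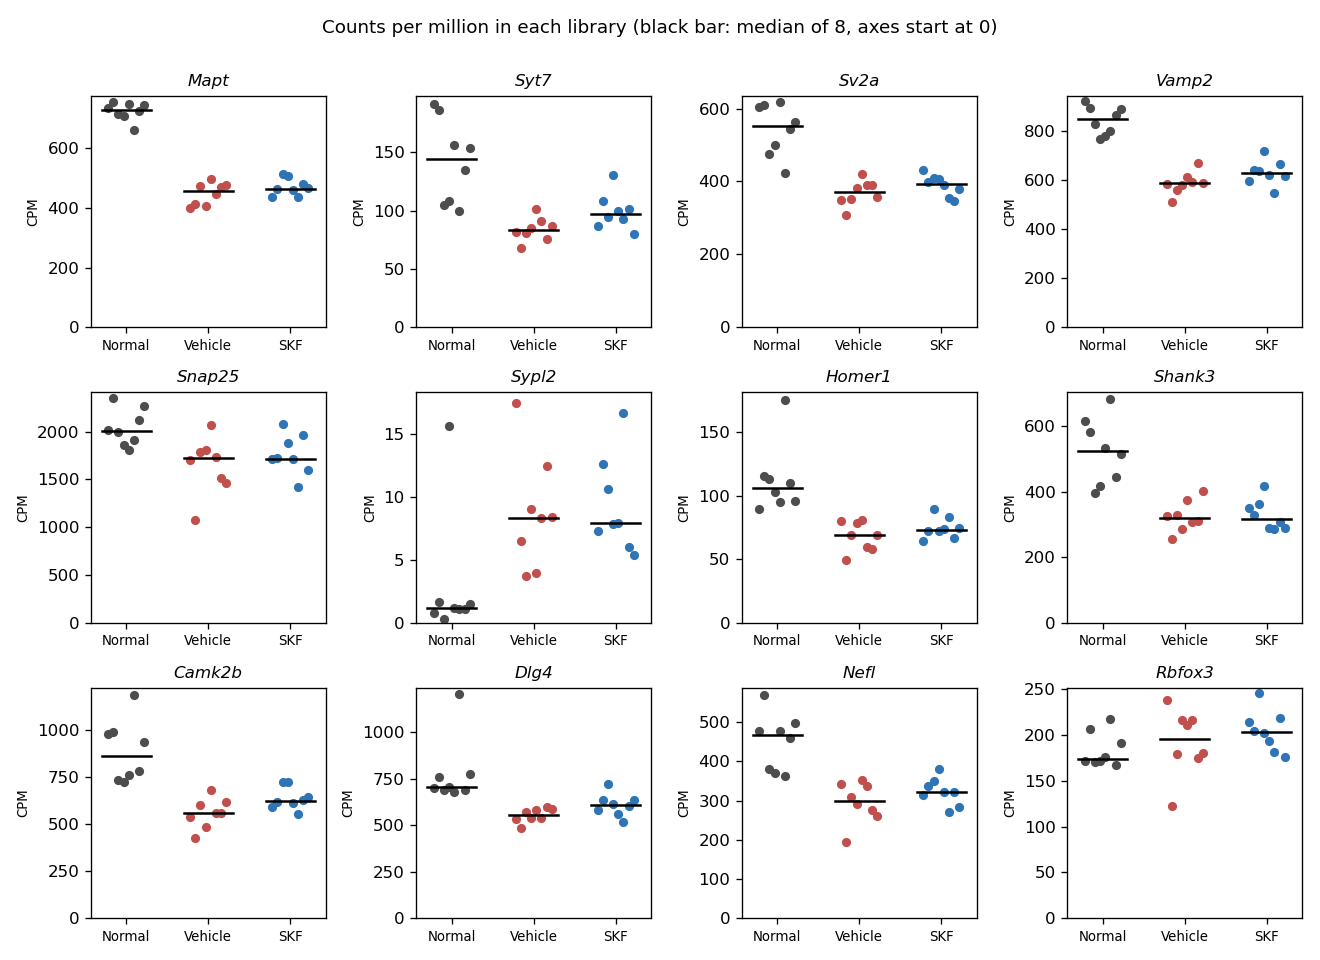
CPM of 12 of the genes in each library (points) of normal control, vehicle and SKF, with the median of 8 as a black bar and every axis starting at 0. Mapt, Sv2a, Vamp2, Homer1, Camk2b, Dlg4 and Nefl show no overlap between vehicle and normal control, Snap25 and Rbfox3 overlap, and 1 normal control library of Sypl2 lies at 15.6.

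The level of each class was also followed as the median over its tested genes of log2 CPM minus the normal control mean. The postsynaptic median ran from -0.12 to 0.32 in normal control libraries, from -0.77 to -0.29 in vehicle and from -0.58 to -0.22 in SKF, with no overlap between normal control and either other group. The soma and axon median ran from -0.17 to 0.21, from -0.78 to -0.26 and from -0.41 to -0.17. Vehicle did not overlap normal control there, and the highest SKF library was level with the lowest normal control library. The presynaptic median overlapped, from -0.14 to 0.17 in normal control, from -0.69 to 0.04 in vehicle and from -0.38 to -0.02 in SKF. Its overlap between vehicle and normal control came from vehicle 5 alone, since the next highest vehicle library was at -0.18. The lowest vehicle value of each class was that of vehicle 2, and the next lowest were -0.33 for presynaptic, -0.57 for postsynaptic and -0.51 for soma and axon genes. Within a library, the presynaptic minus the postsynaptic median was -0.36 to 0.16 in normal control, 0.07 to 0.40 in vehicle and 0.12 to 0.29 in SKF, with medians of 0.02, 0.27 and 0.19. The limit of -0.36 was that of normal control 6, which also had the highest postsynaptic median of its group, and the other 7 normal control libraries began at -0.03. These are descriptions of the chosen classes and carry no test.

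**Figure D3:**
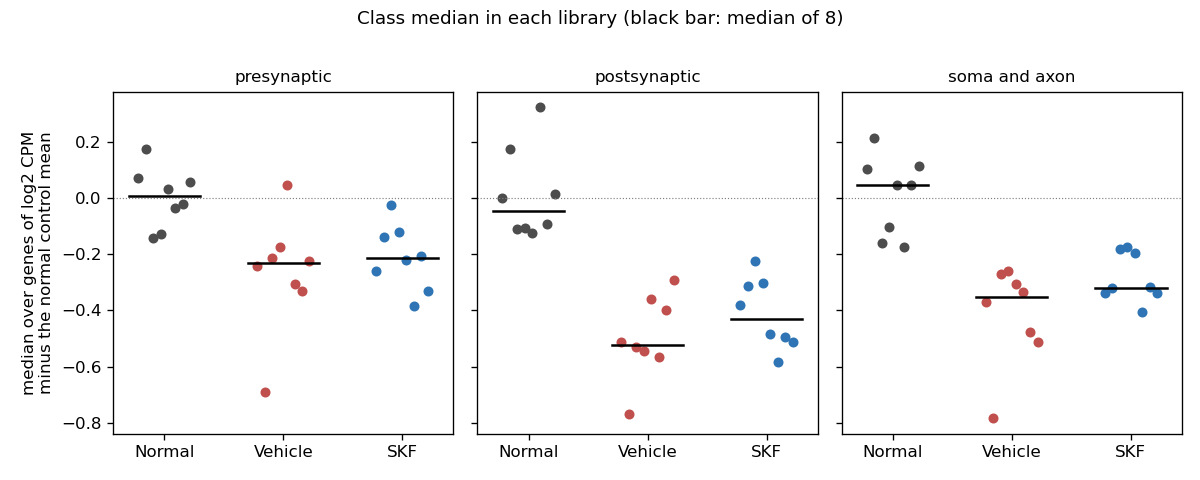
Median over the 24 presynaptic, 12 postsynaptic and 10 soma and axon genes of log2 CPM minus the normal control mean, for each library (points), with the median of 8 as a black bar. Vehicle 2 is the lowest vehicle library in all 3 panels, and postsynaptic values of vehicle (highest -0.29) lie under those of normal control (lowest -0.12).

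Several genes changed unequally with a relative of the same family. The ratio of 2 related genes within a library does not depend on its total, and it was compared between vehicle and normal control for 22 pairs by an exact permutation test (two-sided, every assignment of the samples to the groups), adjusted over the 22 pairs. Of the 22, 11 passed. The share that would pass among other pairs of genes was not measured, and 27.1% of all genes tested were lower and 26.9% higher here. The pairs were chosen with earlier results of these data known, and several of them share a gene. The log2 ratio of Sv2a to Sv2b was 0.32 to 1.04 in normal control and -0.17 to 0.28 in vehicle, with no overlap and a difference of -0.56 ± 0.10 (SE, exact permutation adjusted p = 0.00171). Sv2b, the relative of Sv2a enriched in glutamatergic neurons, had 263, 329.8 and 398 CPM in normal control, 253, 329 and 392 in vehicle and 299.5, 386 and 442 in SKF, and its own change in vehicle was 0.02 ± 0.09.

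The log2 ratio of Nefl to Nefh also did not overlap: it was 0.57 to 1.63 in normal control and 0.13 to 0.47 in vehicle, a difference of -0.51 ± 0.12 (exact permutation adjusted p = 0.00171, from the smallest p that these permutations can give, 0.0001554). Without normal control 6, the library at 1.63, the difference was -0.39. The ratio of Syp to Sypl2 had the largest difference, -2.80 ± 0.59 (adjusted p = 0.00513 by the exact permutation test), and overlapped through normal control 4. Sv2a against Sv2c differed by -1.04 ± 0.39 (exact permutation adjusted p = 0.0315), where Sv2c ran from 5.73 to 51.4 CPM in normal control, 18.6 to 35.5 in vehicle and 22.4 to 32.1 in SKF. That call was lost without normal control 1, 2, 5 or 8 or vehicle 1, 2, 3 or 8, where the difference was -1.04 to -0.76 (exact permutation adjusted p = 0.0513 to 0.0615).

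Smaller unequal changes passed as well. The log2 ratio of Vamp1 to Vamp2 was higher in vehicle by 0.40 ± 0.11 and that of Camk2a to Camk2b by 0.29 ± 0.06, each with 8 of 8 vehicle libraries above the normal control median (exact permutation adjusted p = 0.00513 and 0.00456). The difference for Vamp1 to Vamp2 was 0.30 without normal control 6. Shank2 to Shank3 differed by 0.35, Bsn to Pclo by 0.21, Nlgn2 to Nlgn3 by 0.14, Nefl to Nefm by -0.33 and Shank1 to Shank2 by -0.17. The call for Shank1 to Shank2 was lost without normal control 1, 2, 4, 5 or 8 or vehicle 2, 3, 5 or 6 (-0.17 to -0.15), and that for Nlgn2 to Nlgn3 without normal control 2, 3, 5, 6 or 8 or vehicle 1, 2, 6 or 7 (0.11 to 0.14). The other 11 pairs, among them Syn1 with Syn2 (-0.06 ± 0.07) and Homer1 with Homer2 (-0.17 ± 0.22), did not pass. With the replicate number as a block, 8 pairs passed.

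**Figure D4:**
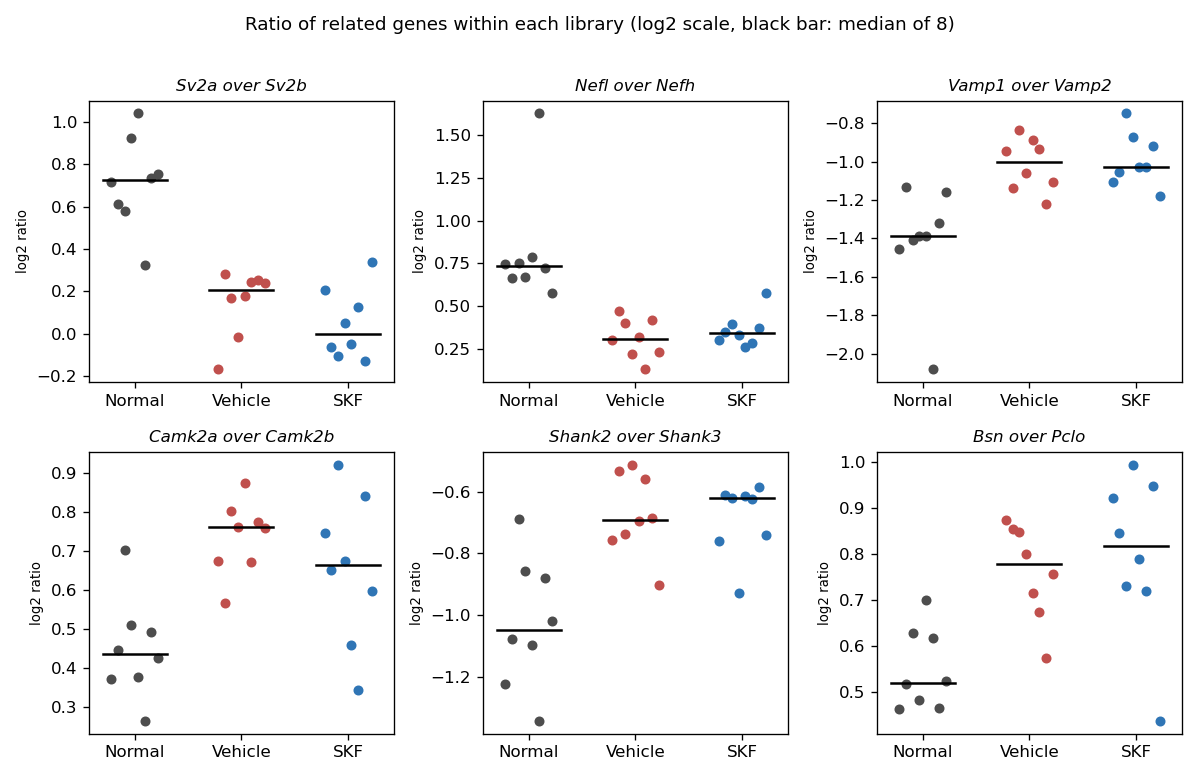
Log2 ratio of 2 related genes within each library (points) of normal control, vehicle and SKF, with the median of 8 as a black bar; the vertical axes are on a log2 scale and do not start at 0. The ratios of Sv2a to Sv2b and of Nefl to Nefh do not overlap between vehicle and normal control; in the other 4 panels at least 1 library overlaps.

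SKF against normal control shares its normal control libraries with the comparison above. In SKF 29 genes were lower and 1 higher (24.7% and 25.5% of all genes tested), with class medians of -0.22 for presynaptic, -0.46 for postsynaptic and -0.32 for soma and axon genes, which on log2(TPM + 1) were -0.12, -0.33 and -0.20. All 30 are among the 33 called in vehicle. Camk2a, Cplx2 and Snap25 passed edgeR's test in vehicle, with log2 fold changes of -0.36, -0.42 and -0.31, and did not pass in SKF, with -0.24, -0.29 and -0.21. The direct differences between SKF and vehicle for these genes (0.12, 0.13 and 0.10) did not pass. DESeq2 called 31 genes lower in SKF, Cplx2 and Snap25 among them. Cplx2 also passed in edgeR with RLE size factors, and Snap25 with only the 2 groups compared. In SKF Snap25 passed without vehicle 2, SKF 3 or SKF 7 (-0.25 to -0.21, edgeR adjusted p = 0.0235 to 0.0483) and Camk2a without SKF 3 (-0.31, edgeR adjusted p = 0.0263). Cplx2, at an edgeR adjusted p of 0.0510, passed without normal control 1, 4, 5 or 7, SKF 3 or 7, or vehicle 1, 2 or 3 (-0.34 to -0.29). In 7 genes no SKF library reached the normal control range (7.09% of all genes tested): Vamp2, Rab3a, Unc13a, Shank1, Nlgn2, Nlgn3 and Mapt. Mapt had -0.62 ± 0.05 in SKF (edgeR adjusted p = 1.51e-10), Shank3 -0.67 ± 0.11 and Syt7 -0.52 ± 0.13. Sypl2 was the gene that was higher, by 1.64 ± 0.56 (edgeR adjusted p = 0.0182), and by 3.09 without normal control 4 (edgeR adjusted p = 1.31e-07).

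SKF against vehicle asks how the agonist arm differed from the vehicle arm. None of the 46 genes passed edgeR's test (0.0% of all genes tested in either direction) and none had an unadjusted p under 0.05, compared with 715 of the 14421 genes tested. DESeq2 called 6 genes in the whole table, none of them among the 46. The log2 fold changes ran from -0.08 to 0.24, and 42 of 46 (91.3%) were above 0, against 50.5% of all genes tested. Other genes of these compartments, on the lists described further on, leaned the same way. Above 0 were 43 of 54 presynaptic (79.6%), 22 of 30 postsynaptic (73.3%) and 23 of 33 soma and axon genes (69.7%). The medians of these lists were 0.09, 0.06 and 0.05. The median of the 46 genes was 0.09, with 0.00 for all genes. By class it was 0.09 for presynaptic, 0.09 for postsynaptic and 0.08 for soma and axon genes. All of these values come from the same libraries, so the genes are not independent of each other. Without vehicle 2, which was lowest in its group for 33 genes, 35 of 46 were above 0, and the class medians were 0.0421, 0.0405 and 0.0350. Without SKF 3, which was highest in its group for 25, 39 of 46 were above 0, and the class medians were 0.06, 0.05 and 0.05. Leaving out any other library left 38 to 44 above 0.

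Sv2b had the smallest unadjusted p, with a difference of 0.18 ± 0.09 (edgeR adjusted p = 0.937), and 6 of 8 SKF libraries were above the vehicle median. Camk2b followed with 0.19 ± 0.10 and Syt7 had the largest difference, 0.24 ± 0.13, also with edgeR adjusted p = 0.937. Of the 4 genes below 0, Pclo had -0.04 ± 0.10 and Sv2c -0.08 ± 0.25, and Nlgn2 and Map2 were at -0.01 each. In every one of the 46 genes the SKF and vehicle ranges overlap (0.0139% of all genes tested lay wholly lower and 0.0% wholly higher in SKF). Set beside these values, the macrophage and neutrophil markers were all below 0 in SKF against vehicle (7 of 7 and 5 of 5 tested, none past the threshold in edgeR and 1, S100a9, in DESeq2), with medians of -0.27 and -0.72. Choroid plexus markers were also all below 0 (6 of 6, median -0.49), as were 6 of 7 microglia markers (median -0.09), while 7 of 8 astrocyte markers were above 0 (median 0.07), none of them past the threshold. The thalamus markers were all above 0 (12 of 12, none past the threshold), with a median of 0.23. Of the other neuronal markers, 6 of 8 GABAergic, 4 of 8 striatal and 7 of 9 cortical were above 0. The 7 include Slc17a7, itself 1 of the 46 genes, and none of these markers passed the threshold. The part of these markers in the common sign was not tested.

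Other genes of the same compartments were counted from lists of 54 presynaptic, 36 postsynaptic and 35 soma and axon genes. In vehicle against normal control, 32 of 54 tested presynaptic genes fell and 2 rose. Slc17a6, the vesicular glutamate transporter of thalamus and brainstem and itself 1 of the 12 thalamus markers, fell by 2.64 ± 0.54, with 4.55, 174 and 251 CPM in normal control and 5.92, 25.4 and 35.8 in vehicle. Syt9, a synaptotagmin, had 10.4, 20.9 and 38.9 CPM in normal control and 2.45, 3.76 and 5.09 in vehicle, with no overlap, and fell by 2.56 ± 0.31 (edgeR adjusted p = 1.77e-07). Unc13b, a priming factor, and Doc2a, a calcium sensor of spontaneous release, rose by 0.51 ± 0.12 and 0.43 ± 0.08.

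Of 30 tested postsynaptic genes on the other list, 18 fell and 1 rose. Shisa9, an auxiliary subunit of AMPA receptors, fell by 0.94 ± 0.12 and Begain, a protein of the postsynaptic density, by 0.89 ± 0.11. Homer3, a relative of Homer1, rose by 0.44 ± 0.11 (edgeR adjusted p = 0.00110). Of 33 tested soma and axon genes 21 fell and 0 rose, with Dpysl5, a protein of growth cones, at -0.73 ± 0.09 and the adhesion molecule Ncam1 at -0.59 ± 0.05. In SKF against normal control the counts were 29 lower and 2 higher, 17 lower and 3 higher, and 22 lower and 0 higher. The median log2 fold changes of the 3 lists were then -0.25, -0.28 and -0.27. In SKF against vehicle 0 genes of each list passed edgeR's test, and 2, 0 and 1 had an unadjusted p under 0.05. DESeq2 also called 0 of them.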

How the data were processed

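Per the labels, RNA from 24 rat brain samples was poly(A)-selected and made into libraries with a directional kit. The authors deposited read counts per gene and, for the same genes and samples, TPM values; both rest on build mRatBN7.2 per the submitters' processing notes. The aligner, the counting program and the use of strand in counting were not given in the sources used here, so reads of overlapping or antisense genes may be included. Groups and replicate numbers come from the sample titles, which do not say that equal numbers mark the same animal.

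The 48 genes, their classes, the lists of other genes and the pairs were chosen with earlier results of these data known. All genes were tested with edgeR 4.0.16 (R 4.3.3; TMM, filterByExpr by group, robust quasi-likelihood F test) in 1 fit of 24 libraries with 21 residual degrees of freedom; p-values were adjusted by Benjamini-Hochberg over 14421 genes, with a threshold of 0.05, and CPM are edgeR's TMM-scaled values. The SE of an edgeR log2 fold change was its absolute value divided by the square root of the test's F statistic. The biological coefficient of variation was 16.2%. Ratios of related genes used log2 CPM with a prior count of 2. Of 23 pairs, 22 had both genes in the table. Values in every group were given for a fixed set of usual markers. They were also given for the 3 largest falls and rises past the threshold in each class. Further such genes were the 2 smallest p in each direction in SKF against vehicle and both genes of the 4 pairs that differed most. The 2 largest falls and rises of each other list were given by their fold change. For Slc17a6 and Syt9 the values in normal control and vehicle were given as well. Vamp2 and other members given by their fold change were added after their values were seen.

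Alternatives were RLE size factors, DESeq2 1.42.0, no filter, a filter of CPM 1 in 8 libraries, only the 2 groups compared, limma 3.58.1 on log2(TPM + 1) and log2(TPM + 0.1) with TPM of at least 0.5 in 8 libraries, the replicate number as a block, normal control 4 and 6 left out, and each library left out in turn; for the ratios also a prior count of 0.5. The gene test and the permutation test were tested on simulated data. Tables and figures were made with Matplotlib 3.10.9, pandas 2.3.3, SciPy 1.17.1 and NumPy 2.4.6 in Python 3.11.15.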

Additional observations from a re-analysis of the deposited data

Results flagged for a closer look

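In 138 groups of 8 libraries (46 genes in 3 groups), the highest or lowest library was set against the others by Dixon's criterion, which chance passes in about 1 of 20 groups, and 8 groups passed. In 5 of them the library is normal control 6: Dlg4 at 1210 CPM (others 677 to 778), Dlg2 at 182 (others 91.2 to 123) and Homer1 at 176 (others 89.6 to 116), all postsynaptic genes and the highest of the group, and Vamp1 at 188 (others 293 to 407) and Nefh at 118 (others 226 to 358), the lowest of the group. This is the library with the most striatal and the fewest thalamus and choroid plexus markers.

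Sypl2 stood at 15.6 CPM in normal control 4 (others 0.293 to 1.63), the library with 2384 CPM of muscle markers. Rbfox3 stood at 122 CPM in vehicle 2 (others 175 to 238), the library that was lowest for 33 of the 46 genes. Nlgn3 stood at 59.5 CPM in SKF 6 (others 69.7 to 80.0), which was lowest in its group for 22 genes.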

How the results depend on the processing

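Of the 33 genes called in vehicle against normal control, 31 were called without any 1 library (Map2 and Sypl2 were lost) and 26 in every setting, with Camk2a, Dlg2, Elavl4, Pclo and Snap25 also lost, on the TPM scale. Of the 30 in SKF against normal control, 28 were called without any 1 library (Dlg2 was lost without normal control 6, at -0.18, and Map2 without normal control 1, 2, 4 or 7 or SKF 1, 2 or 7, at -0.19 to -0.17) and 25 in every setting. No called value changed sign. On log2(TPM + 1) the median gene stood 0.11 higher in vehicle, with 5491 genes higher and 2410 lower in the whole table, against 3879 and 3904 on counts; 26 of the 46 genes were then lower and 2 higher, and in SKF against normal control 24 were lower and 4 higher (Sypl2, Sv2b, Slc17a7 and Rbfox3). With a pseudocount of 0.1 the counts of higher genes were also 2 and 4. The count of genes higher in vehicle, 1, was 0 with only the 2 groups compared, where Sypl2 had an adjusted p of 0.0590 in edgeR, and 2 without normal control 4 and 6, and it ran from 0 to 2 with 1 library left out. In SKF against normal control it was 2 without normal control 4 and 6 and ran from 1 to 2 with 1 library left out, Sv2b passing without normal control 2, vehicle 2, SKF 6 or SKF 8 and Sv2c without normal control 6. The soma and axon median in SKF against normal control, -0.32, was -0.20 and -0.21 on the TPM scale with pseudocounts of 1 and 0.1. Over 1.5 times apart at a pseudocount of 1 were also the presynaptic medians (-0.31 and -0.20 in vehicle, -0.22 and -0.12 in SKF) and that of soma and axon genes in vehicle (-0.36 and -0.22). In SKF against vehicle the class medians ran from 0.0421 to 0.1137, 0.0405 to 0.1274 and 0.035 to 0.1202 with 1 library left out, each lowest without vehicle 2.

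Values that changed sign had not passed. In vehicle, Sv2b (0.02) was -0.0265 without normal control 4 and 6 and -0.0249 to 0.0665 with 1 library left out; Slc17a7 (0.05) was -0.0584 without normal control 4 and 6, and -0.0033 to 0.1159 with 1 library left out; Nefh (-0.13) was 0.0256 and 0.026 at TPM pseudocounts of 1 and 0.1. In SKF against normal control Nefh (-0.06) was 0.0895 and 0.0904 at these pseudocounts and -0.1748 to 0.0111 with 1 library left out, and Syn1 (-0.08) was 0.0199 at both. In SKF against vehicle Pclo (-0.04) ran from -0.0963 to 0.0234 with 1 library left out. The cause of these shifts was not tested.

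With the replicate number as a block, 31 genes were lower and 1 higher in vehicle (Map2 lost) and 27 and 1 in SKF against normal control, and 8 pairs of related genes passed in place of 11, without Sv2a to Sv2c, Shank1 to Shank2 and Nlgn2 to Nlgn3. Libraries with equal numbers did not deviate together: their correlations ran from -0.24 to 0.08, and none of 24 was the best match of its library. Without 1 library 8 to 11 pairs passed, the same 3 pairs being those lost.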
